A study of Saccharomyces cerevisiae with 20 samples.

Results

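Ribosome footprints of budding yeast cells that relied on the RNA helicase Ded1 were compared between growth at 37C and growth at 30C. The cells were of the SK1 strain background and carried DED1 under its own regulatory regions. They are called DED1 cells here. The comparison set 2 footprint libraries at 37C against 3 at 30C, 5 of the 20 libraries of the study. The remaining libraries were the mRNA of the same cells and both assays in DBP1 cells, in which the DBP1 coding sequence stood under the DED1 regulatory regions. All cells grew in YEPD, a rich glucose medium, with aeration, were harvested at an optical density of 0.6 and had been treated for 1 min with 100 uM cycloheximide, which holds ribosomes on the mRNA. Footprints were fragments of 28 to 31 nt. How long cells had been at 37C is not given in the sources used here, nor is it said whether replicates were separate cultures, so the p-values measure the spread between these samples. A gene was included when its mean over the 10 footprint libraries was at least 5 RPKM (reads per kilobase of gene, scaled to the mapped reads of the library), which 4986 of 6679 genes met. Of the 1693 genes below that level, 735 had no footprint in any of the 5 libraries.

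A ribosome footprint is the piece of mRNA that a ribosome covers and so protects from nuclease, and footprint density over a gene depends on both the amount of its mRNA and how many ribosomes that mRNA carries. Budding yeast meets heat with well-studied programmes. The heat shock factor Hsf1 drives genes for chaperones, which hold, refold or disaggregate other proteins. The factors Msn2 and Msn4 drive a general stress programme of trehalose and glycogen metabolism, small heat shock proteins and oxidant defence. Signalling through protein kinase A and TORC1 controls the genes of ribosome production, which are known to be shut down early in a heat shock. Ded1 is a DEAD-box helicase that helps the small ribosomal subunit scan the leader of an mRNA to its start codon.

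The 5 libraries held 6.44 to 9.39 M reads, so that 1 read in a gene of 1 kb stood for 0.106 to 0.155 RPKM. The log values of the 37C pair correlated across genes with r = 0.990, those of the 30C pairs with r = 0.991 to 0.995, and those across temperatures with r = 0.944 to 0.968. Every difference below is the mean log2(RPKM + 1) at 37C minus that at 30C, with its standard error. "Rose" and "fell" are kept for genes with an adjusted p under 0.05 in limma over all genes tested. RPKM values are shares of a library, so they cannot show whether translation as a whole went up or down. The median gene lay 0.21 higher at 37C on this scale and 0.01 lower when libraries were scaled by the median of ratios, a shift of 0.217 between the scalings. Cytosolic ribosomal protein genes, 138 in all, took 29.5 and 29.9% of the summed RPKM at 37C, against 37.1, 38.2 and 40.7% at 30C. The part of that share in the shift was not tested.

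Footprints of 2621 genes, 52.6% of those tested, changed between the temperatures. Of the 4986 genes, 1942 rose and 679 fell, or 38.9% and 13.6% of all genes tested. With median-of-ratios scaling 2197 genes were called, 44.1%, of which 1002 rose and 1195 fell, or 20.1% and 24.0%. All 1002 genes higher on that scale were among the 1942, and all 679 were among the 1195. A difference of at least 2-fold was seen for 325 of the genes that rose and 63 of those that fell. In 2592 genes, 52.0%, each 37C value lay above each 30C value, and in 989 genes, 19.8%, each lay below. Without replicate 1 at 37C the calls fell to 1209 higher and 464 lower. At the lower edge of the included genes were SSP1 at 5.01 RPKM and YDL211C at 5.01 RPKM, and just outside it were CQD1 at 5.00 RPKM and SRL4 at 4.97 RPKM, as means of 10 libraries. Of the included genes, 141 had a mean under 5 RPKM at 30C and 39 had one under 5 RPKM at 37C. These could pass through their higher group alone, or through the DBP1 libraries among the 10. Counts over the genes that reached 5 RPKM at both temperatures are therefore given beside the lists in which they differ. There were 4819 genes of this kind, of which 1837 rose and 660 fell.

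**Figure D1:**
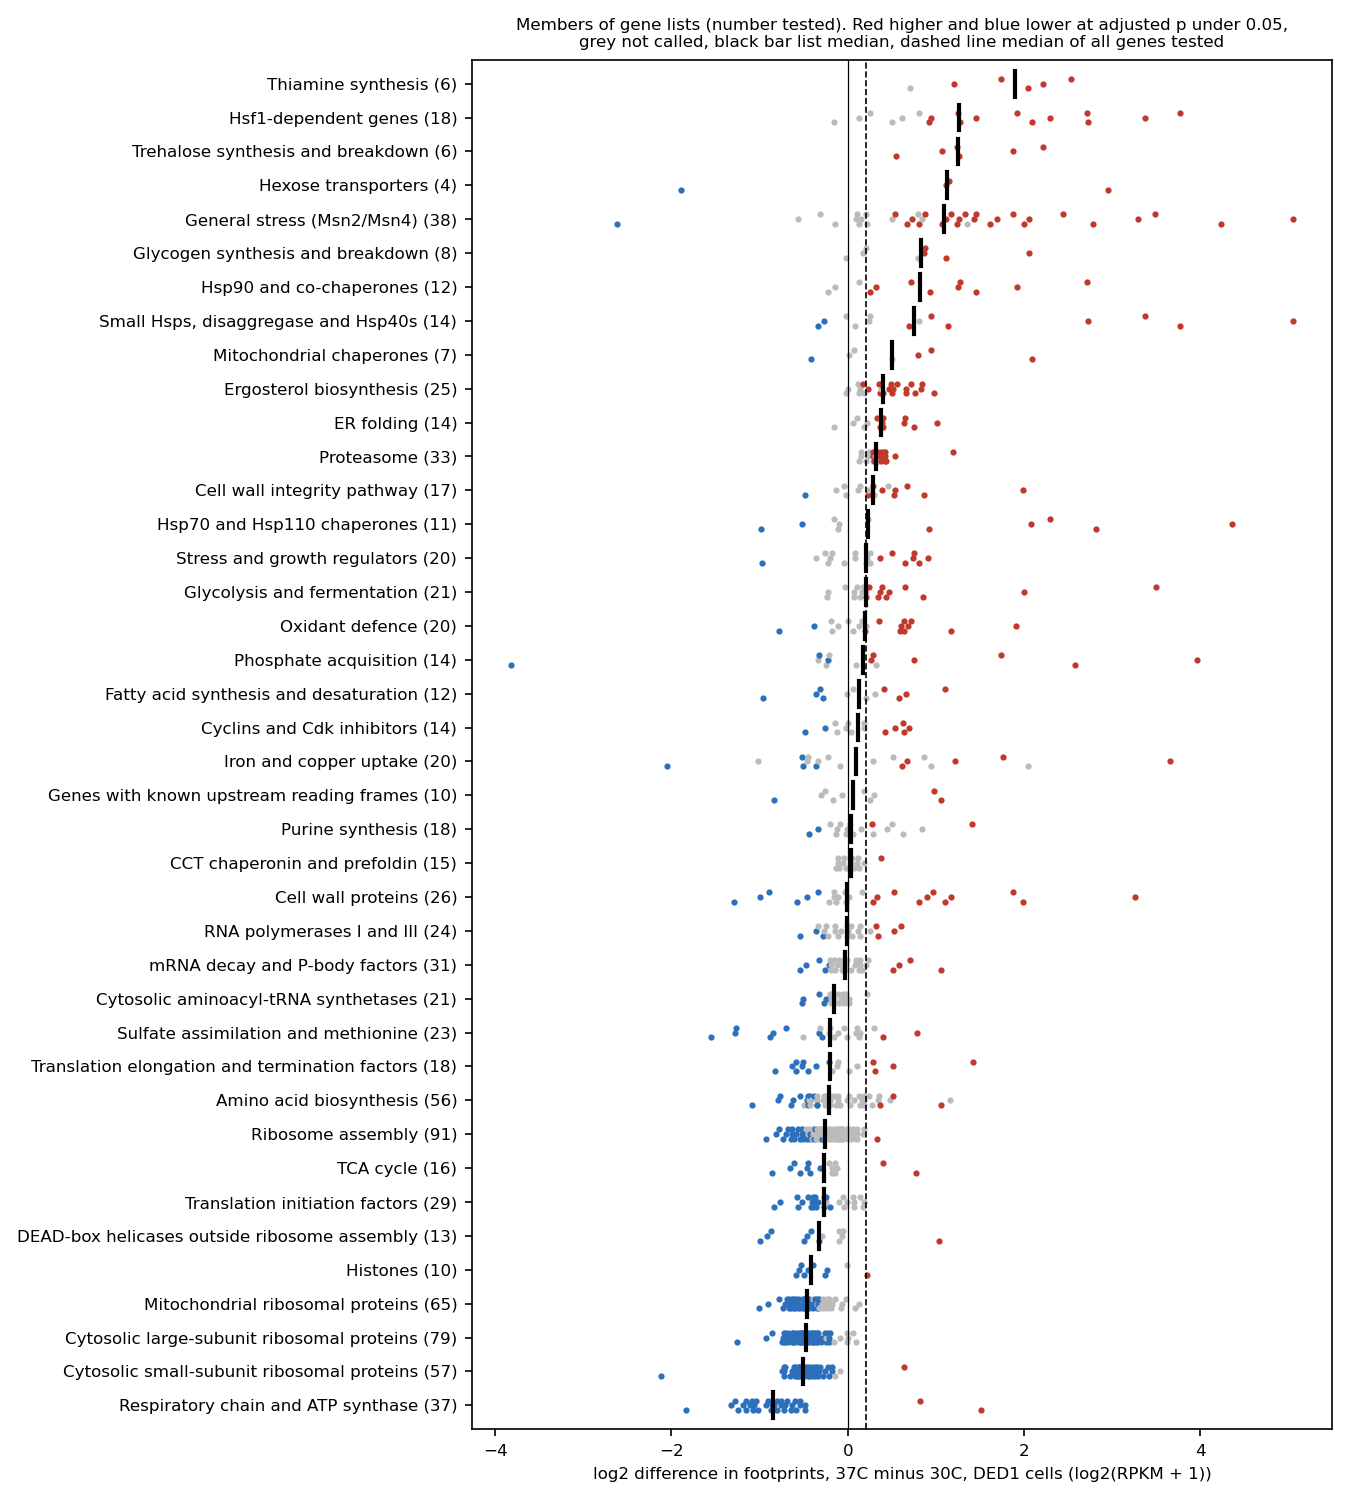
Log2 difference in footprints, 37C minus 30C, in DED1 cells (x axis) for the tested members of 40 gene lists (y axis, number tested in brackets). Each point is 1 gene, red where it rose, blue where it fell and grey where it did not pass the test. The black bar is the list median and the dashed line the median of all genes, 0.21. Thiamine, Hsf1-dependent, trehalose and general stress genes lie to the right, and respiratory chain and ribosomal protein genes to the left.

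Among the genes that rose, HSP26, which encodes a small heat shock protein that binds unfolding proteins, had 106 and 126 RPKM at 37C, against 3.82, 2.46 and 1.59 RPKM at 30C. Its log2 difference of 5.05 ± 0.30 (adjusted p = 1.0e-05) was the largest among genes averaging at least 20 RPKM in these 5 libraries. SSA4, an Hsp70 chaperone known for its induction by heat, had 70.8 and 78.9 RPKM at 37C, against 3.93, 2.45 and 1.99 RPKM at 30C. In both genes the 37C values lay far above all 30C values. YRO2, a membrane protein related to Hsp30, rose by 4.29 ± 0.31 (adjusted p = 2.2e-05), and TMA10, a ribosome-associated protein, by 4.23 ± 0.55 (adjusted p = 3.0e-04). ROQ1, which redirects a ubiquitin ligase towards misfolded proteins, rose by 3.30 ± 0.55 (adjusted p = 1.0e-03). The zinc transporter gene ZRT1 had 689 and 31.4 RPKM at 37C, against 4.67, 6.24 and 7.97 RPKM at 30C. Its log2 difference of 4.38 ± 1.08 (adjusted p = 0.0077) rested on replicate 1 at 37C, without which it was 2.18 with an adjusted p of 0.061. Without replicate 2 at 37C it was 6.59.

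Among the genes that fell, PTR2, the transporter of short peptides, had 4.72 and 5.12 RPKM at 37C, against 64.8, 79.6 and 129 RPKM at 30C, a log2 difference of -3.90 ± 0.41 (adjusted p = 9.6e-05). PHO84, the high-affinity phosphate transporter, had 4.76 and 3.00 RPKM at 37C, against 59.0, 46.0 and 109 RPKM at 30C (log2 difference -3.82 ± 0.41, adjusted p = 1.1e-04). PNS1 had 7.33 and 9.0 RPKM at 37C, against 42.3, 34.0 and 33.6 RPKM at 30C (log2 difference -2.04 ± 0.19, adjusted p = 6.2e-05). No 37C value of these 3 genes reached any 30C value. RPS22B, a copy in a ribosomal protein gene pair, had 182 and 298 RPKM at 37C, against 914, 969 and 1194 RPKM at 30C, which was the largest fall among ribosomal protein genes (log2 difference -2.12 ± 0.21, adjusted p = 8.3e-05). YHR214W-A and YIL165C fell by 1.91 and 1.55 on the log2 scale. SIT1, a siderophore transporter, had 7.0 and 20.7 RPKM at 37C, against 44.4, 86.2 and 40.4 RPKM at 30C, and its fall was no longer called without replicate 1 at 37C (log2 difference -1.33, adjusted p = 0.15).

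DED1 itself had fewer footprints at 37C. It had 365 and 365 RPKM at 37C, against 617, 652 and 744 RPKM at 30C, a log2 difference of -0.87 ± 0.14 (adjusted p = 0.001), and each 37C value lay below each 30C value. Its mRNA had 40.9 and 43.7 RPKM at 37C, against 54.2, 50.6 and 48.5 RPKM at 30C, and that difference did not pass the test (-0.27 ± 0.38, adjusted p = 0.57). The efficiency difference, footprints minus mRNA, was -0.61 ± 0.44 and did not pass either (adjusted p = 0.67, or 0.4 with footprint and mRNA libraries paired by replicate). The native DBP1 gene encodes a related helicase that DED1 cells express at a low level. It had 7.34 and 8.07 RPKM at 37C, against 3.74, 2.99 and 3.03 RPKM at 30C in footprints, a rise of 1.04 ± 0.10 (adjusted p = 6.2e-05). All its values remained far under those of DED1.

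Of 13 DEAD-box helicases outside ribosome assembly, 7 fell, 1 rose and 5 did not pass, with a median of -0.33. With median-of-ratios scaling 10 fell and 1 rose. The gene that rose was DBP1, which was under 5 RPKM at 30C. DBP2, a nuclear helicase of mRNA export and decay, fell by 0.99. MSS116, which helps splice mitochondrial introns, had 88.1 and 104 RPKM at 37C, against 185, 164 and 198 RPKM at 30C (log2 difference -0.92 ± 0.11, adjusted p = 1.8e-04). SUB2, a splicing and export helicase, fell by 0.46. TIF1 and TIF2, which encode the same protein, eIF4A, differed by -0.10 and -0.42. Only TIF2 passed the test. How reads shared by such copies were counted is not given in the sources used here, so values for near-identical copies are uncertain.

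Hsp70 chaperones split by copy. Of 11 genes of Hsp70s, Hsp110s and their partners Zuo1 and Fes1, 5 rose and 2 fell, with a median of 0.23 close to that of all genes. Among the 9 that reached 5 RPKM at both temperatures 3 rose and 2 fell, with a median of -0.10, and with median-of-ratios scaling 4 rose and 4 fell. SSA1, a cytosolic Hsp70 under Hsf1, had 1109 and 1214 RPKM at 37C, against 317, 196 and 209 RPKM at 30C (log2 difference 2.30 ± 0.35, adjusted p = 6.4e-04). SSA2, its near-identical constitutive copy, had 1647 and 2449.6 RPKM at 37C, against 2265, 2191 and 2259 RPKM at 30C, with the 30C values between the 37C values, and did not pass (log2 difference -0.16 ± 0.16, adjusted p = 0.43). Without replicate 2 at 37C SSA2 was called lower, at -0.44. SSA3, an inducible copy, had 7.35 and 12.2 RPKM at 37C, against 0.225, 0.901 and 0.411 RPKM at 30C, where the least covered library held 4 reads. SSB1 and SSB2 encode Hsp70s that bind nascent chains at the ribosome, and both fell. SSB1 had 825 and 805 RPKM at 37C, against 1521, 1629 and 1702 RPKM at 30C (log2 difference -0.99 ± 0.08, adjusted p = 3.2e-05), and SSB2 had a log2 difference of -0.52 ± 0.07 (adjusted p = 2.7e-04). Their ribosome-bound partners SSZ1 and ZUO1 differed by -0.10 and -0.12 and passed the test only with median-of-ratios scaling, at -0.32 and -0.34. Of the Hsp110 exchange factors, SSE2 had 114 and 79.2 RPKM at 37C, against 27.7, 20.5 and 18.2 RPKM at 30C (log2 difference 2.07 ± 0.30, adjusted p = 5.5e-04). SSE1 did not pass (log2 difference 0.23 ± 0.09, adjusted p = 0.052), though it was called without replicate 1 at 37C, at 0.36. FES1, another exchange factor, had 336 and 275 RPKM at 37C, against 167, 149 and 163 RPKM at 30C (log2 difference 0.92 ± 0.30, adjusted p = 0.027). That call ended with median-of-ratios scaling (adjusted p = 0.092) and without replicate 2 or 3 at 30C or either replicate at 37C (adjusted p = 0.055 to 0.16). Together the 11 genes held 0.614 and 0.671% of summed RPKM at 37C, against 0.609, 0.608 and 0.618% at 30C.

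**Figure D2:**
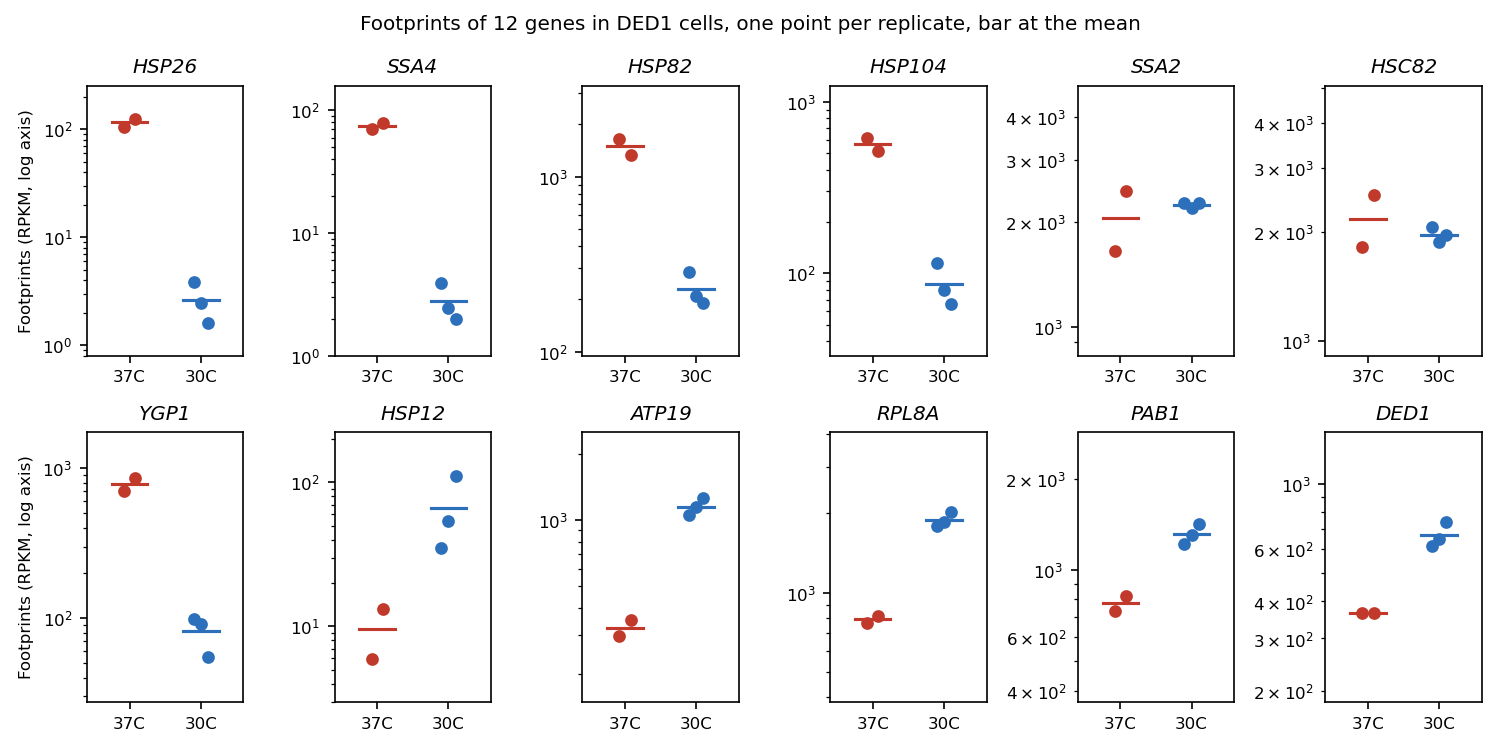
Footprints (RPKM, log axis, each panel with its own scale) of 12 genes in DED1 cells at 37C (red, 2 replicates) and 30C (blue, 3 replicates), 1 point per library with a bar at the mean. HSP26, SSA4, HSP82, HSP104 and YGP1 are higher at 37C in each library, SSA2 and HSC82 overlap, and HSP12, ATP19, RPL8A, PAB1 and DED1 are lower.

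Hsp90 works with a set of co-chaperones. Of 12 genes of Hsp90 and these proteins, 9 rose and none fell, with a median of 0.82. With median-of-ratios scaling 7 rose and 2 fell, and without replicate 1 at 30C 1 was called lower. HSP82, the heat-inducible Hsp90, had 1644 and 1336 RPKM at 37C, against 286, 209 and 189 RPKM at 30C (log2 difference 2.72 ± 0.26, adjusted p = 6.2e-05). Its constitutive copy HSC82 had 1816 and 2525 RPKM at 37C, against 2059, 1870.3 and 1963 RPKM at 30C, with overlapping groups, and did not pass (log2 difference 0.13 ± 0.15, adjusted p = 0.5). At 30C HSC82 carried the more footprints in each library, and at 37C the copies were close in replicate 1. Of the co-chaperones, the prolyl isomerase CPR6 rose by 1.91 ± 0.16 (adjusted p = 5.0e-05). The ATPase activators HCH1 and AHA1 rose by 1.45 ± 0.13 and 1.28 ± 0.21. STI1, which passes clients between Hsp70 and Hsp90, had 1115 and 1326 RPKM at 37C, against 555, 479 and 499 RPKM at 30C, a rise of 1.25 ± 0.21. SGT1 and CDC37, co-chaperones of kinetochore proteins and kinases, rose by 0.93 and 0.71. CPR7 and SBA1 rose by 0.32 and 0.25 on the RPKM scale and differed by 0.10 and 0.03, without passing, on the other. CNS1 and PPT1 differed by -0.14 and -0.22, and were called lower, at -0.37 and -0.44, with median-of-ratios scaling. The summed share of the 12 genes was 0.695 and 0.771% at 37C, against 0.385, 0.341 and 0.345% at 30C.

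Of 14 small heat shock, disaggregase and Hsp40 genes, 7 rose and 2 fell, with a median of 0.75. With median-of-ratios scaling 6 rose and 2 fell, and of the 13 genes that reached 5 RPKM at both temperatures 6 rose and 2 fell. Without replicate 1 at 37C, or replicate 3 at 30C, none was called lower. HSP104, the disaggregase, had 618 and 518 RPKM at 37C, against 115, 80.0 and 65.8 RPKM at 30C (log2 difference 2.73 ± 0.36, adjusted p = 2.9e-04). HSP42 and BTN2 encode proteins that gather misfolded proteins into deposits. HSP42 had 252 and 193 RPKM at 37C, against 30.4, 20.2 and 13.8 RPKM at 30C, a rise of 3.37 ± 0.60 (adjusted p = 0.0014). BTN2 had 183 and 105 RPKM at 37C, against 12.6, 8.93 and 6.88 RPKM at 30C, a rise of 3.77 ± 0.60 (adjusted p = 8.1e-04). All 3 genes were without overlap between temperatures. The Hsp40 genes APJ1 and SIS1 rose by 1.14 and 0.94, whereas DJP1 and XDJ1 fell by 0.27 and 0.33. SIS1 did not pass with median-of-ratios scaling, at 0.72. YDJ1, the Hsp40 with the most footprints, had 799.6 and 765 RPKM at 37C, against 643, 618 and 707 RPKM at 30C and did not pass (log2 difference 0.26 ± 0.18, adjusted p = 0.25).

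Other lists held chaperones of tubulin and actin, of mitochondria and of the endoplasmic reticulum. Of 15 subunits of the CCT chaperonin and prefoldin, which fold actin and tubulin, 1 rose and none fell, with a median of 0.04. With median-of-ratios scaling none rose and 7 fell. The gene that rose was the prefoldin gene PFD1, at 0.38 ± 0.08, and CCT6 and CCT2 differed by -0.13 and -0.06. Of 7 tested mitochondrial chaperones of 8 listed, 3 rose and 1 fell under both scalings. HSP60, the mitochondrial chaperonin, had 1884 and 2559 RPKM at 37C, against 1325, 1034 and 1082 RPKM at 30C (log2 difference 0.94 ± 0.17, adjusted p = 0.0014). Its partner HSP10 had 2474 and 3786 RPKM at 37C, against 1881, 1608 and 1794 RPKM at 30C and rose by 0.80 ± 0.18. Without replicate 2 at 37C the difference was 0.49 and no longer called (adjusted p = 0.052). HSP78, the mitochondrial disaggregase, had 356 and 324 RPKM at 37C, against 117.3, 78.8 and 53.6 RPKM at 30C, a rise of 2.09 ± 0.41. MGE1, the exchange factor of mitochondrial Hsp70, fell by 0.41. SSC1, that Hsp70, had 1379.9 and 1745 RPKM at 37C, against 1634, 1372 and 1619.6 RPKM at 30C, with overlapping groups, and MDJ1 and ZIM17 differed by 0.51 and 0.07 without passing. Of 14 genes of folding in the endoplasmic reticulum, 9 rose and none fell. With median-of-ratios scaling 3 rose and 1 fell, and without replicate 1 at 37C 4 rose. The oxidoreductases MPD2, ERO1 and EUG1 rose by 1.02, 0.75 and 0.65. PDI1, the main disulphide isomerase, did not pass (log2 difference 0.19 ± 0.10, adjusted p = 0.14).

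Across all of these, 12 of 18 genes known to depend on Hsf1 rose and none fell, with a median of 1.26, and 10 rose with median-of-ratios scaling. Leaving out replicate 2 at 37C gave 10 that rose and 1, SSA2, that fell. The 6 that did not pass were CUR1, MBF1, MDJ1, YDJ1, HSC82 and SSA2, at 0.81, 0.62, 0.51, 0.26, 0.13 and -0.16. The median of the same 18 genes was 1.18 in mRNA, where 12 rose.

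Genes of the general stress programme rose with exceptions. Of 38 tested genes of 41 listed, 24 rose and 1 fell, with a median of 1.09. With median-of-ratios scaling 21 rose and 1 fell. Among the 30 that reached 5 RPKM at both temperatures 20 rose and 1 fell, with a median of 0.97. YGP1, a secreted glycoprotein made in stress and starvation, had 707 and 866 RPKM at 37C, against 98.8, 90.8 and 54.7 RPKM at 30C (log2 difference 3.29 ± 0.24, adjusted p = 2.2e-05). MOH1 had 45.8 and 34.6 RPKM at 37C, against 1.79, 3.30 and 3.04 RPKM at 30C (log2 difference 3.48 ± 0.32), and the glutaredoxin gene GRX1 had 1027 and 936 RPKM at 37C, against 387, 358 and 327 RPKM at 30C (log2 difference 1.46 ± 0.11). These genes did not overlap between temperatures. UBI4, the polyubiquitin gene, rose by 2.78. HSP12, a membrane-associated stress protein that is among the best-known targets of Msn2 and Msn4, went the other way. It had 5.92 and 13.1 RPKM at 37C, against 35.1, 53.8 and 111 RPKM at 30C, a log2 difference of -2.61 ± 0.42 (adjusted p = 8.8e-04), and each 37C value lay below each 30C value. The 30C values differed among themselves, with replicate 3 the highest. The cytosolic catalase gene CTT1, DDR48 and RTC3 differed by 0.13, 0.09 and -0.31 and did not pass. CTT1 averaged only 4.20 RPKM at 37C and 3.58 RPKM at 30C, under 5 RPKM at both temperatures. HOR7, the member with the most footprints, had 6572 and 7843 RPKM at 37C, against 4925, 4759 and 3433 RPKM at 30C, a rise of 0.73.

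Trehalose is a sugar that shields proteins in heat, and glycogen is a store of glucose. All 6 tested trehalose genes rose, under both scalings and without any 1 library, and 5 of these reached 5 RPKM at both temperatures. The other listed gene, ATH1, averaged under 5 RPKM over the 10 footprint libraries and was not tested. TPS1, the synthase, had 379 and 449.9 RPKM at 37C, against 233, 162 and 133 RPKM at 30C (log2 difference 1.26 ± 0.27, adjusted p = 0.0036). TPS2, the phosphatase, and TSL1 and TPS3, regulatory subunits of the same complex, rose by 1.07 ± 0.24, 1.88 ± 0.38 and 0.55 ± 0.12. NTH1 and NTH2, trehalases that break the sugar down, rose too. NTH1 had 84.5 and 71.6 RPKM at 37C, against 39.2, 33.0 and 26.4 RPKM at 30C, a rise of 1.24 ± 0.18, and NTH2 had 18.7 and 15.7 RPKM at 37C, against 4.20, 2.93 and 1.90 RPKM at 30C, a rise of 2.22 ± 0.21.

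Of 8 tested glycogen genes, 4 rose and none fell, and 3 rose with median-of-ratios scaling. GPH1, glycogen phosphorylase, had 33.9 and 31.5 RPKM at 37C, against 9.93, 6.92 and 5.16 RPKM at 30C (log2 difference 2.06 ± 0.28, adjusted p = 3.7e-04). GSY2, the main synthase, rose by 1.12 ± 0.31, a call that ended without replicate 1 at 37C (log2 difference 0.90, adjusted p = 0.11), where 2 of the 8 genes were called. UGP1, which supplies UDP-glucose, had 495 and 489.7 RPKM at 37C, against 308, 265 and 240.1 RPKM at 30C, a rise of 0.87. The branching enzyme gene GLC3 rose by 0.87. PGM2, phosphoglucomutase, had 30.9 and 27.4 RPKM at 37C, against 23.4, 14.9 and 12.4 RPKM at 30C and did not pass (log2 difference 0.80 ± 0.36, adjusted p = 0.087), though it was called without replicate 1 at 30C, at 1.04. GSY1, GDB1 and GLG2 differed by 0.21, 0.17 and -0.02.

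Of 20 tested genes of oxidant defence, 10 rose and 2 fell, with a median of 0.20 next to 0.21 for all genes. With median-of-ratios scaling 8 rose and 3 fell. Leaving out any library but replicate 2 at 37C left 1 that fell, and of the 18 that reached 5 RPKM at both temperatures 9 rose and 2 fell. PRX1 and TRX3, a peroxiredoxin and a thioredoxin of mitochondria, rose by 1.17 ± 0.15 and 0.71 ± 0.10. TSA1, the main cytosolic peroxiredoxin, had 6603 and 7459 RPKM at 37C, against 4471, 4583 and 4442 RPKM at 30C (log2 difference 0.64 ± 0.08, adjusted p = 1.9e-04). TRX1, a cytosolic thioredoxin, fell, with 658 and 699 RPKM at 37C, against 1186, 1079.8 and 1229 RPKM at 30C (log2 difference -0.78 ± 0.08, adjusted p = 6.7e-05), while its close copy TRX2 rose by 0.60. Superoxide dismutases SOD1 and SOD2 rose by 0.63 and 0.59. AHP1, the peroxiredoxin with the most footprints of the list, had 6649.9 and 9666 RPKM at 37C, against 6634, 6615 and 7695 RPKM at 30C and did not pass.

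Regulators of stress and growth were mixed. Of 20, 7 rose and 1 fell, against 4 and 5 with median-of-ratios scaling. The share that rose, 35%, was near the 38.9% of all genes. Leaving out replicate 2 at 37C left 4 that rose, and leaving out replicate 1 at 37C gave 3 that fell. Brakes on growth signalling were among those that rose. BCY1, the inhibitory subunit of protein kinase A, had 229 and 215 RPKM at 37C, against 139, 129.8 and 125 RPKM at 30C (log2 difference 0.76 ± 0.10, adjusted p = 2.6e-04). The kinase gene YAK1, which acts against protein kinase A, rose by 0.91 ± 0.14, and the cyclic AMP phosphodiesterase genes PDE1 and PDE2 by 0.80 and 0.36. RAS1, an activator of cyclic AMP synthesis, fell, with 41.6 and 36.9 RPKM at 37C, against 74.5, 74.8 and 85.1 RPKM at 30C (log2 difference -0.98 ± 0.15, adjusted p = 6.6e-04). RAS2 differed by -0.23, called only with median-of-ratios scaling. MSN4 rose by 0.65 ± 0.14, while MSN2 and HSF1 differed by -0.20 and 0.25 and did not pass, except MSN2 with median-of-ratios scaling, at -0.42.

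The cell wall is remodelled in heat through the kinase Slt2. Of 17 tested genes of that pathway, 8 rose and 1 fell, and with median-of-ratios scaling 5 rose and 1 fell. The shares of 47.1 and 5.88% stood next to 38.9 and 13.6% of all genes. The list median of 0.28 was close to the 0.21 of all genes. Leaving out replicate 1 at 37C left 5 that rose. SLT2 had 122 and 106 RPKM at 37C, against 67.3, 62.7 and 56.8 RPKM at 30C (log2 difference 0.86 ± 0.11, adjusted p = 2.0e-04). The paralogous glucan synthase genes moved apart. GSC2 had 31.1 and 19.0 RPKM at 37C, against 5.01, 6.54 and 4.74 RPKM at 30C, a rise of 1.99 ± 0.22 (adjusted p = 1.1e-04). FKS1 had 222 and 191 RPKM at 37C, against 275, 295 and 298 RPKM at 30C, a fall of 0.49 on the log2 scale (adjusted p = 0.0025), and remained the higher by far. The chitin synthase gene CHS1 rose by 0.52, and RHO1 differed by 0.11 without passing. Of 26 tested cell wall proteins, 11 rose and 6 fell, against 8 and 11 with median-of-ratios scaling, and 10 and 6 of the 25 that reached 5 RPKM at both temperatures. The share of the 26 that rose, 42.3%, was near the 38.9% of all genes. TIP1, PST1 and HSP150 rose by 3.26 ± 0.27, 1.98 ± 0.19 and 1.17 ± 0.11. SUN4, a protein of cell separation, had 37.0 and 47.4 RPKM at 37C, against 81.7, 81.3 and 92.0 RPKM at 30C, a fall of 1.00 on the log2 scale. CCW12, the wall protein with the most footprints, had 9428 and 12483 RPKM at 37C, against 13991, 15862 and 15197 RPKM at 30C, and its fall of 0.47 was not called without replicate 1 at 37C (log2 difference -0.26, adjusted p = 0.071). FLO11, a flocculin, fell by 1.29.

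Genes of mitochondrial energy production fell together. Of 37 nuclear genes for subunits of respiratory complexes and ATP synthase or their partners, 35 fell and 2 rose, with a median of -0.85. Counts of 35 and 2 were also found with median-of-ratios scaling and without each library in turn, and of the 36 that reached 5 RPKM at both temperatures 34 fell and 2 rose. ATP19, subunit k of ATP synthase, had 295 and 352 RPKM at 37C, against 1057, 1146 and 1257 RPKM at 30C (log2 difference -1.83 ± 0.10, adjusted p = 1.0e-05). ATP3, of its catalytic head, had 211 and 244 RPKM at 37C, against 551, 558 and 608 RPKM at 30C (log2 difference -1.33 ± 0.09, adjusted p = 1.4e-05). No library at 37C came near those at 30C in either gene. ATP5 and the NADH dehydrogenase gene NDI1 fell by 1.28 and 0.93. INH1, which encodes an inhibitor of the same ATP synthase and is outside the list, had 121 and 244 RPKM at 37C, against 584, 509.9 and 709 RPKM at 30C (log2 difference -1.79 ± 0.24). CYC1, the main cytochrome c, had 2315 and 2819.7 RPKM at 37C, against 3706, 3476 and 4027 RPKM at 30C and fell by 0.55, whereas its minor form CYC7 had 319 and 153 RPKM at 37C, against 106, 69.2 and 61.6 RPKM at 30C and rose by 1.51 ± 0.31 (adjusted p = 0.003). Without replicate 1 at 37C the rise of CYC7 was 0.99. The other gene that rose was GUT2, glycerol-3-phosphate dehydrogenase, at 0.82. The 37 genes held 1.62 and 1.86% of summed RPKM at 37C, against 2.84, 2.86 and 2.89% at 30C.

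Of 16 genes of the TCA cycle, 8 fell and 2 rose, with a median of -0.27. With median-of-ratios scaling 14 fell and none rose. SDH1, the flavoprotein of succinate dehydrogenase, had 81.9 and 74.6 RPKM at 37C, against 155, 126 and 149 RPKM at 30C (log2 difference -0.86 ± 0.14, adjusted p = 8.1e-04). ACO1, CIT1 and KGD2, of aconitase, citrate synthase and ketoglutarate dehydrogenase, fell by 0.66, 0.61 and 0.55. CIT3, a minor citrate synthase, and LSC2 rose by 0.78 and 0.40 and were not called without replicate 1 at 37C. Of 65 mitochondrial ribosomal protein genes, 46 fell and none rose, with a median of -0.46, and 59 fell with median-of-ratios scaling. The count was 21 without replicate 1 at 37C. MRPS35 had 60.4 and 75.3 RPKM at 37C, against 141, 121 and 148 RPKM at 30C (log2 difference -1.01 ± 0.12, adjusted p = 1.6e-04). MRPL16, MRPL3 and MRPL9 fell by 0.73, 0.67 and 0.56. MRP10 had 277 and 305 RPKM at 37C, against 290.0, 236 and 276 RPKM at 30C and did not pass (log2 difference 0.12 ± 0.10). The 8 listed protein genes encoded in mitochondrial DNA had at most 2.45 RPKM of footprints in any of the 5 libraries and none was tested.

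Cytosolic ribosomal protein genes fell almost throughout. Of 79 tested genes of the large subunit, 71 fell and none rose, with a median of -0.48, and of 57 of the small subunit 54 fell and 1 rose, with a median of -0.50. With median-of-ratios scaling 75 and 55 fell. RPS13 fell by 0.54, RPS31 by 0.63 and RPL29 by 0.53. RPL8A, a member of a duplicate pair, had 765 and 815 RPKM at 37C, against 1784, 1858 and 2026 RPKM at 30C (log2 difference -1.26 ± 0.09, adjusted p = 1.9e-05). RPP2B, RPL14A, RPL12B, RPS8A and RPS0B fell by 0.86, 0.68, 0.62, 0.75 and 0.65. RPS14B, a copy in a pair, rose by 0.64. Most of these genes come in near-identical pairs, so the split between copies is uncertain.

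The machinery that builds ribosomes fell in part. Of 91 assembly genes, 23 fell and 1 rose, with a median of -0.26. With median-of-ratios scaling 52 fell and none rose, and the count was 12 without replicate 1 at 37C and 14 without replicate 3 at 30C. The genes of small nucleolar RNA particles were among those that fell. NOP1, the fibrillarin of these particles, had 720.0 and 818 RPKM at 37C, against 1112, 1182 and 1301 RPKM at 30C (log2 difference -0.64 ± 0.11, adjusted p = 0.0014). SNU13, GAR1 and CBF5 fell by 0.73, 0.68 and 0.52. Of 24 tested subunits and factors of RNA polymerases I and III, 4 rose and 3 fell, against none and 9 with median-of-ratios scaling. RPA34 and RPC31 fell by 0.54 and 0.37, and RRN3 and RRN10 rose by 0.53 and 0.60, which was not called with the other scaling. RPC10 differed by -0.14. Without replicate 1 at 37C none of the 24 was called lower. Leaving out replicate 2 at 37C, or replicate 1 or 2 at 30C, left 1 that rose.

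Translation factors were listed in 2 groups. Of 29 initiation factors, 18 fell and none rose, with a median of -0.27, and 22 fell with median-of-ratios scaling. The count was 12 without replicate 1 at 37C, and without replicate 2 at 37C 1 was called higher. TIF4631, the eIF4G scaffold that joins cap and tail, had 192 and 192 RPKM at 37C, against 322, 341 and 370.4 RPKM at 30C (log2 difference -0.84 ± 0.10, adjusted p = 2.0e-04). PAB1, which binds the poly(A) tail, had 731 and 822 RPKM at 37C, against 1224, 1308 and 1425 RPKM at 30C (log2 difference -0.76 ± 0.08, adjusted p = 1.1e-04). In neither gene did the temperatures overlap. CDC33, the cap-binding eIF4E, and TIF35, of eIF3, fell by 0.57 and 0.58. SUI1, which encodes eIF1, had 1317 and 1362 RPKM at 37C, against 1229, 1232 and 1409 RPKM at 30C and did not pass. Subunits of eIF2B and the kinase gene GCN2 also did not pass.

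Of 18 tested elongation and termination factors, 9 fell and 4 rose, against 12 and 2 with median-of-ratios scaling. Leaving out replicate 1 at 37C left 1 that rose. YEF3, elongation factor 3, had 2847 and 2841 RPKM at 37C, against 4062, 4320.2 and 4488 RPKM at 30C (log2 difference -0.59 ± 0.06, adjusted p = 1.1e-04). TEF4 and STM1, a subunit of eEF1B and a ribosome-binding protein, fell by 0.52 and 0.51. EFT1, 1 of the identical copies of elongation factor 2, fell by 0.82 and its twin EFT2 by 0.64. HYP2 and ANB1 encode the aerobic and hypoxic forms of eIF5A. HYP2 had 9026 and 10426 RPKM at 37C, against 11041, 11022 and 11761 RPKM at 30C, a fall of 0.22 on the log2 scale, and ANB1 rose by 1.42. Of 31 genes of mRNA decay, 5 fell and 4 rose, against 14 and 4 with median-of-ratios scaling. Leaving out either 37C library, or replicate 1 or 3 at 30C, left 3 that fell. XRN1, the main cytoplasmic exonuclease, had 59.0 and 54.2 RPKM at 37C, against 85.5, 79.6 and 83.9 RPKM at 30C (log2 difference -0.54 ± 0.08, adjusted p = 6.0e-04). LSM1, of the decapping activator ring, fell by 0.47, while EDC2 and SKI7, in decapping and exosome recruitment, rose by 1.06 and 0.71. LSM3, the member with the most footprints, differed by 0.16. Of 21 genes of cytosolic aminoacyl-tRNA synthetases and their cofactor Arc1, 5 fell and none rose, with a median of -0.16, and 16 fell with median-of-ratios scaling. KRS1, ALA1, DED81 and SES1 fell by 0.51, 0.52, 0.33 and 0.24. Without replicate 2 at 37C 2 fell.

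Amino acid and sulphur genes were mostly lower or did not pass. Of 56 tested genes of amino acid synthesis, 13 fell and 3 rose, with a median of -0.21, against 29 and 1 with median-of-ratios scaling. Leaving out single libraries gave 7 to 18 lower, with 7 without replicate 2 at 37C and 8 without replicate 1 at 37C. ILV5, of branched-chain synthesis, had 1765 and 1934 RPKM at 37C, against 2968, 2850.0 and 2832 RPKM at 30C (log2 difference -0.64 ± 0.07, adjusted p = 1.5e-04). GDH1 and ASN2, of glutamate and asparagine, fell by 0.47 and 0.54, and ARO7, of aromatic amino acids, rose by 0.51. Of 23 tested genes of sulphate assimilation and methionine, 8 fell and 2 rose, against 11 and 1 with the other scaling. Leaving out replicate 1 at 37C left none that rose, and leaving out replicate 2 or 3 at 30C left 1. MET17, sulphhydrylase, had 152 and 192 RPKM at 37C, against 505, 409 and 349 RPKM at 30C (log2 difference -1.28 ± 0.19, adjusted p = 5.4e-04). MET5, a subunit of sulphite reductase, had 12.02 and 10.8 RPKM at 37C, against 42.0, 34.0 and 30.5 RPKM at 30C (log2 difference -1.55 ± 0.17, adjusted p = 1.3e-04). MET16 fell by 1.27. The copies of S-adenosylmethionine synthetase moved apart: SAM1 fell by 0.88 and SAM2 rose by 0.40, the second only on the RPKM scale.

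Purine genes differed between the 37C replicates more than between temperatures. The 18 genes, which make purine nucleotides and the one-carbon units these need, summed to 12576 and 5678 RPKM at 37C, against 6775, 7279 and 7258 RPKM at 30C. Replicate 1 at 37C lay above and replicate 2 below all 30C libraries. Replicate 1 at 37C of DBP1 cells also stood apart, with sums of 12699 and 6321 RPKM at 37C, against 6276, 5000 and 6222 RPKM at 30C. The mRNA sums in DED1 cells were 10991 and 5851 RPKM at 37C, against 6967, 7248 and 7323 RPKM at 30C. Of the 18 genes, 2 rose and 2 fell in footprints, against 1 and 3 with median-of-ratios scaling. Without replicate 1 at 37C none rose and without replicate 2 at 37C 4 rose. MTD1, a folate enzyme, had 745 and 275 RPKM at 37C, against 169, 173 and 168 RPKM at 30C, and its rise of 1.41 ± 0.40 became 0.69 without replicate 1 (adjusted p = 0.17). SHM2, serine hydroxymethyltransferase, had 2239 and 866 RPKM at 37C, against 755, 748 and 828 RPKM at 30C and did not pass (log2 difference 0.84 ± 0.38, adjusted p = 0.09). Without replicate 2 at 37C it was called, at 1.53. ADE16 rose by 0.28, called only on the RPKM scale, and GUA1 and PRS3 fell by 0.44 and 0.34.

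**Figure D3:**
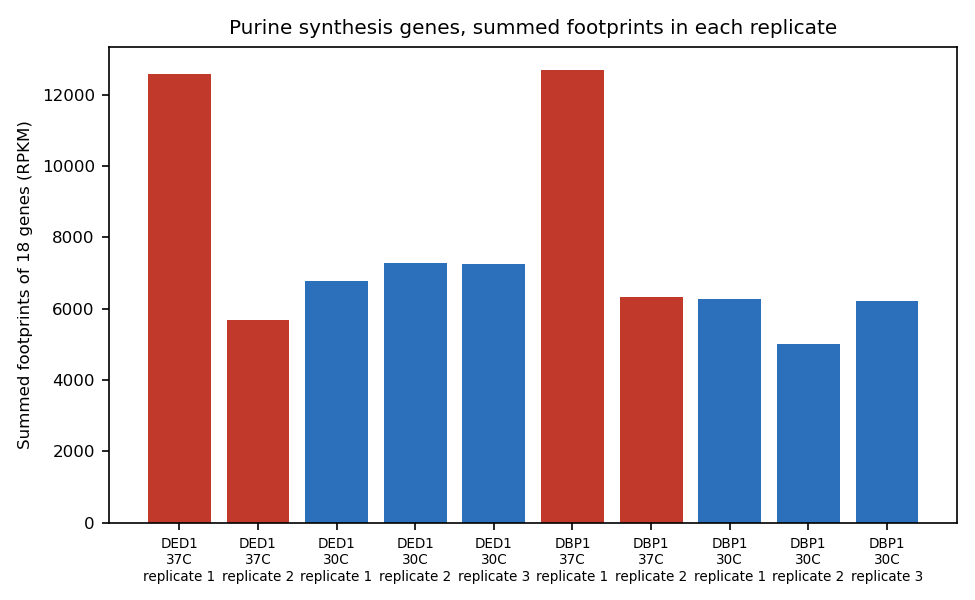
Summed footprints (RPKM, y axis) of 18 purine genes in each footprint library (x axis), DED1 cells left and DBP1 cells right, 37C in red and 30C in blue. Replicate 1 at 37C stands apart in both strains, at 12576 and 12699 RPKM.

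Sugar genes showed isoform changes. Of 21 tested genes of glycolysis and fermentation, 11 rose and none fell, with a median of 0.20, against 4 and 2 with median-of-ratios scaling. Leaving out replicate 2 at 37C left 7 that rose. TDH1, a minor form of glyceraldehyde-3-phosphate dehydrogenase, had 830.3 and 393 RPKM at 37C, against 66.8, 58.4 and 31.6 RPKM at 30C (log2 difference 3.49 ± 0.49, adjusted p = 4.1e-04). The major form TDH3 had 23959 and 26749 RPKM at 37C, against 22717, 22499 and 20839 RPKM at 30C. Its difference of 0.20 turned to -0.02 with median-of-ratios scaling (adjusted p = 0.85). It was 0.12 without replicate 2 at 37C (adjusted p = 0.24), and it was not called without replicate 2 or 3 at 30C or in DED1 cells alone. HXK1, a hexokinase, had 445 and 380.3 RPKM at 37C, against 137, 95.4 and 81.3 RPKM at 30C, a rise of 2.0 ± 0.32. PGK1 and PGI1 rose by 0.64 and 0.47, and PGI1 did not pass with the other scaling. Of 13 hexose transporter and sensor genes 4 were tested, and 3 rose and 1 fell under both scalings. HXT4 had 502 and 269 RPKM at 37C, against 53.5, 54.6 and 34.6 RPKM at 30C, a rise of 2.95 ± 0.37 (adjusted p = 2.2e-04). HXT3, a low-affinity transporter, had 1106 and 721 RPKM at 37C, against 390.3, 473 and 378 RPKM at 30C, a rise of 1.11 ± 0.23. HXT1, also of low affinity, had 30.1 and 46.2 RPKM at 37C, against 14.3, 20.0 and 15.2 RPKM at 30C, and its rise of 1.14 ± 0.33 ended without replicate 2 at 37C (log2 difference 0.84, adjusted p = 0.13). HXT2, a high-affinity transporter, had 132 and 207 RPKM at 37C, against 608, 579 and 665 RPKM at 30C, a fall of 1.89 on the log2 scale (adjusted p = 2.6e-04).

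Membrane lipid genes rose in the sterol branch. Of 25 genes of ergosterol synthesis, 18 rose and none fell, with a median of 0.40, and 10 rose with median-of-ratios scaling. ERG3, a desaturase, had 966 and 1082 RPKM at 37C, against 496, 577 and 487 RPKM at 30C (log2 difference 0.98 ± 0.11, adjusted p = 1.1e-04). ERG11, the azole target, had 767 and 667 RPKM at 37C, against 398, 430.2 and 368 RPKM at 30C (log2 difference 0.84 ± 0.11). ERG25 and the mevalonate kinase gene ERG12 rose by 0.83 and 0.72. Of 12 genes of fatty acids, 4 rose and 4 fell, against 3 and 4 with median-of-ratios scaling. Leaving out either 37C library left 2 that fell. ACC1, acetyl-CoA carboxylase, the first step of synthesis, had 226 and 184 RPKM at 37C, against 344, 353 and 522 RPKM at 30C (log2 difference -0.96 ± 0.20, adjusted p = 0.0031). FAS1, a fatty acid synthase subunit, fell by 0.36, and its partner FAS2 differed by -0.01 and did not pass. The acyl-CoA binding protein gene ACB1 and the elongase gene ELO2 fell by 0.32 and 0.29. FAA1, which activates fatty acids, had 388 and 280.5 RPKM at 37C, against 144, 116.7 and 215 RPKM at 30C, a rise of 1.10 ± 0.25. SPT23 and MGA2, activators of desaturation, and the elongase gene ELO1 rose by 0.66, 0.58 and 0.41, the last only on the RPKM scale. OLE1, the desaturase itself, FAA4 and ELO3 differed by 0.31, 0.21 and 0.06 and did not pass. Without replicate 2 at 30C OLE1 was called, at 0.38.

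Of 10 histone genes, 8 fell and 1 rose, with a median of -0.42. With median-of-ratios scaling 9 fell and none rose. HTA1 and HTA2, of H2A, fell by 0.55 and 0.53, HTB1, of H2B, by 0.50 and the linker histone gene HHO1 by 0.59. HHT1, HHF1, HHF2 and the variant HTZ1 fell by 0.45, 0.39, 0.25 and 0.24. HTB2, the second H2B gene, had 1269 and 1248 RPKM at 37C, against 1010.4, 1096 and 1136 RPKM at 30C. Its difference of 0.22 (adjusted p = 0.048) turned to -0.0048 with median-of-ratios scaling (adjusted p = 0.97). It was also lost without either replicate at 37C and without replicate 1 or 2 at 30C. HHT2 had 1517 and 1422 RPKM at 37C, against 1460.1, 1487 and 1502 RPKM at 30C and did not pass. Of 14 tested cyclins and Cdk inhibitors, 5 rose and 2 fell, against 4 and 2 with median-of-ratios scaling. These shares, 35.7 and 14.3%, were near the 38.9 and 13.6% of all genes. CDC28, the cell cycle kinase, had 119 and 108 RPKM at 37C, against 73.4, 65.7 and 70.1 RPKM at 30C (log2 difference 0.69 ± 0.11, adjusted p = 9.5e-04). The mitotic cyclin genes CLB1 and CLB4 and the cyclin gene PCL2 rose by 0.64, 0.62 and 0.54. The calls of the 2 that fell, CLB2 and SWE1, were lost singly or together without each library.

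Of 33 proteasome genes, 24 rose and none fell, with a median of 0.32, but 2 rose with median-of-ratios scaling. The count was 6 without replicate 2 at 37C, and without replicate 2 or 3 at 30C 14 or 12. Single subunits moved little. PUP2 had 305 and 330.5 RPKM at 37C, against 231, 221 and 206 RPKM at 30C (log2 difference 0.53 ± 0.09, adjusted p = 0.0012). RPN1 and RPT5 rose by 0.42 and 0.44, and were not called with the other scaling. PRE7 rose by 0.32 (adjusted p = 0.049), and that call ended without each library except replicate 1 at 37C, and with median-of-ratios scaling. RPN4, the transcription factor that drives proteasome genes, had 89.0 and 73.7 RPKM at 37C, against 35.7, 35.5 and 33.2 RPKM at 30C (log2 difference 1.20 ± 0.23, adjusted p = 0.0021).

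Genes of phosphate, metals and vitamins held some of the largest differences, in both directions. Of 14 tested phosphate genes, 6 rose and 3 fell, or 42.9 and 21.4% next to 38.9 and 13.6% of all genes, against 4 and 6 with median-of-ratios scaling. Leaving out replicate 1 at 37C left 3 and 1, and of the 12 that reached 5 RPKM at both temperatures 5 rose and 2 fell. PHO5, the repressible acid phosphatase, had 84.6 and 30.2 RPKM at 37C, against 2.38, 2.24 and 2.31 RPKM at 30C (log2 difference 3.96 ± 0.39, adjusted p = 7.0e-05), while PHO84, which is regulated with it, fell by 3.82. PHO3, the constitutive and thiamine-regulated phosphatase, had 561 and 418 RPKM at 37C, against 129.7, 174 and 132 RPKM at 30C (log2 difference 1.74 ± 0.17). PHM8 had 41.5 and 57.0 RPKM at 37C, against 10.8, 7.95 and 4.45 RPKM at 30C (log2 difference 2.58 ± 0.37), and VTC1, of polyphosphate synthesis, fell by 0.32. Of 20 tested iron and copper genes, 5 rose and 4 fell, against 2 and 5 with median-of-ratios scaling. The share that rose, 25%, was under the 38.9% of all genes, and the share that fell, 20%, was over their 13.6%. The list median was 0.10, next to 0.21 for all genes. Of the 15 that reached 5 RPKM at both temperatures 4 rose and 4 fell. CRS5, a metallothionein, had 55.8 and 69.0 RPKM at 37C, against 3.55, 4.36 and 4.14 RPKM at 30C (log2 difference 3.66 ± 0.32, adjusted p = 5.2e-05). SMF3, the vacuolar iron exporter, had 209 and 193 RPKM at 37C, against 99.3, 102 and 63.1 RPKM at 30C, a rise of 1.21 ± 0.19. The copper transporter genes CTR2 and CTR3 fell by 0.52 and 0.51, and CCC2 rose by 0.62 on the RPKM scale only. Single libraries moved the iron and copper counts to between 2 and 7 higher and 2 and 4 lower. Of 14 thiamine genes 6 were tested, and 5 rose and none fell under both scalings, or 4 of the 5 that reached 5 RPKM at both temperatures. THI20 had 122 and 58.0 RPKM at 37C, against 14.2, 18.3 and 9.92 RPKM at 30C (log2 difference 2.53 ± 0.44, adjusted p = 0.0013). THI6, THI73 and the transporter gene THI7 rose by 2.04 ± 0.29, 2.22 ± 0.60 and 1.20 ± 0.25, and THI3 differed by 0.70. In each of these THI genes replicate 1 at 37C was the higher.

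Genes known for upstream reading frames in their leaders were mostly not called. Of 10 tested, 2 rose and 1 fell, against 1 and 4 with median-of-ratios scaling. GCN4, the activator of amino acid synthesis, had 367 and 273 RPKM at 37C, against 426, 436 and 290.5 RPKM at 30C, with overlapping groups (log2 difference -0.25 ± 0.42, adjusted p = 0.63). CPA1, whose upstream peptide responds to arginine, had 108 and 181 RPKM at 37C, against 64.0, 62.0 and 74.8 RPKM at 30C (log2 difference 1.05 ± 0.30, adjusted p = 0.015). CAD1, a stress transcription factor gene, rose by 0.98 ± 0.15, and the gene that fell was TIF4631, described above. HAP4, the activator of respiratory genes, had 62.0 and 70.3 RPKM at 37C, against 74.1, 70.8 and 79.1 RPKM at 30C and did not pass (log2 difference -0.17 ± 0.10), except with median-of-ratios scaling, at -0.40. CLN3, YAP1, INO2, SCO1 and SCH9 differed by 0.19, 0.25, 0.30, -0.30 and -0.07.

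Footprints and mRNA moved together for most genes. Of 5454 genes tested in mRNA, 2909 were called, 53.3%, of which 2349 rose and 560 fell, or 43.1% and 10.3%, with a median difference of 0.26. With median-of-ratios scaling 926 rose and 1180 fell. Among the 4977 genes tested in both assays, 1515 rose in both and 446 fell in both. None rose in footprints and fell in mRNA, and 9 fell in footprints and rose in mRNA. The differences of the assays correlated across genes with r = 0.877, where genes are not independent replicates and share the libraries. A further 649 genes were called in footprints and not in mRNA, which does not show that they differed between assays.

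The direct test of that is the difference in translation efficiency, footprints minus mRNA. It passed for 49 genes, 0.985% of those tested, with 7 higher (0.141%) and 42 lower (0.844%) at 37C. Same-numbered footprint and mRNA libraries deviated together in each group. With that pairing in the fit 334 genes passed, 6.71%, with 141 higher (2.83%) and 193 lower (3.88%), and all 49 were among them. With median-of-ratios scaling, unpaired, 11 were higher and 26 lower. Without the footprint and mRNA libraries of 1 DED1 replicate at 30C, 1 to 2 were higher and 3 to 19 lower. In a fit on DED1 cells alone 3 were higher and 2 lower. SSA4 mRNA had 85.2 and 88.2 RPKM at 37C, against 18.4, 16.3 and 14.8 RPKM at 30C, a rise of 2.33 ± 0.19, which was less than its rise in footprints. Its efficiency was 2.02 ± 0.35 higher (adjusted p = 0.015 unpaired and 4.6e-05 paired). SSA3 efficiency was 1.85 ± 0.39 higher (adjusted p = 0.037), a value that rests on 30C levels under 1 RPKM, and with a pseudocount of 5 it was 0.58 (adjusted p = 0.37). GNT1, a Golgi glycosyltransferase gene, had 77.7 and 72.7 RPKM at 37C, against 42.6, 42.5 and 41.8 RPKM at 30C in footprints and 153 and 162 RPKM at 37C, against 150.3, 151 and 158 RPKM at 30C in mRNA, so that efficiency differed by 0.77 ± 0.11 (adjusted p = 0.0041). FUB1 and VMA3, the second a vacuolar ATPase subunit, were 0.71 and 0.44 higher. VMA3 footprints did not pass (log2 difference 0.10 ± 0.07), and its mRNA fell by 0.34.

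The named genes of lower efficiency had mRNA that rose or did not pass the test. BDF2, a bromodomain protein of chromatin, had 28.0 and 26.1 RPKM at 37C, against 59.0, 56.4 and 56.4 RPKM at 30C in footprints and 165 and 175 RPKM at 37C, against 197, 197 and 181 RPKM at 30C in mRNA. Its efficiency difference was -0.88 ± 0.11 (adjusted p = 0.003), the smallest p of all. MET5 mRNA had 19.6 and 17.2 RPKM at 37C, against 26.02, 18.9 and 18.05 RPKM at 30C, with overlapping groups, while its footprints did not overlap, and efficiency differed by -1.38 ± 0.26 (adjusted p = 0.016). FKS1 mRNA rose by 0.35 while its footprints fell by 0.49, an efficiency difference of -0.84 ± 0.14 (adjusted p = 0.012). PUF4, an mRNA-binding protein, and XRN1 differed by -0.81 ± 0.14 and -0.81 ± 0.14 in efficiency. YOR248W and NAM8, a splicing factor, differed by -0.90 ± 0.20 and -0.90 ± 0.20, neither of which passed with median-of-ratios scaling (adjusted p = 0.077 and 0.066). HAP4 efficiency differed by -0.69 ± 0.12 (adjusted p = 0.015), with an mRNA difference of 0.51 ± 0.09 (adjusted p = 0.0012). Of the 13 efficiency genes followed with both libraries of a replicate left out, 6, 11 and 11 were lost without replicates 1, 2 and 3 at 30C. Leaving out either replicate at 37C leaves 1 there, too few for such a count.

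Efficiency differences followed coding length. The 42 genes with lower efficiency had a median coding length of 2865 bases, the 7 with higher efficiency 897 bases, and all genes tested 1226 bases. The median efficiency difference was 0.10 in 540 genes under 500 bases and -0.23 in 406 genes of at least 3000 bases. Footprint medians were 0.20 and 0.10 in these classes, and mRNA medians 0.11 and 0.40. The gradient was thus steeper in mRNA, where it ran upwards with length. Footprint fragments were of 28 to 31 nt and mRNA fragments of 50 nt. The part of library preparation in this gradient was not tested.

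**Figure D4:**
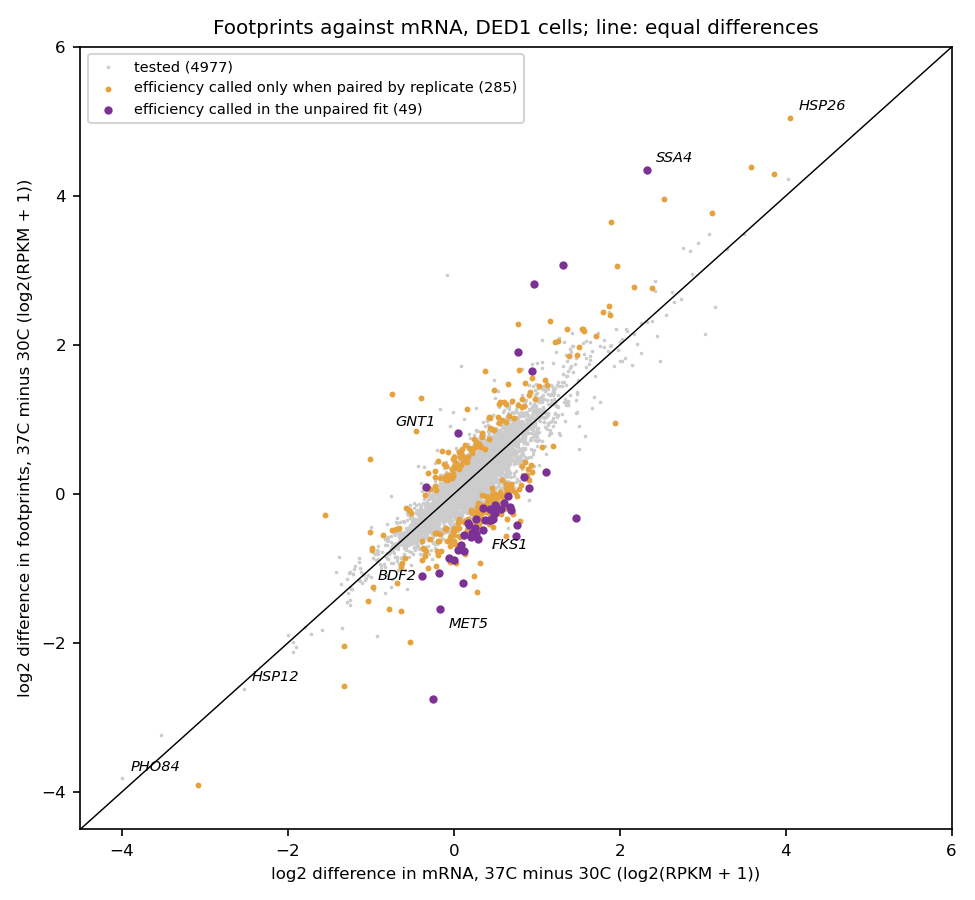
Log2 difference in footprints (y axis) against that in mRNA (x axis), 37C minus 30C in DED1 cells, for 4977 genes tested in both assays. The line marks equal differences, purple points are the 49 genes called for efficiency and orange points the 285 called only with libraries paired by replicate. SSA4 lies above the line and MET5, BDF2 and FKS1 below it, while HSP12 and PHO84 lie near it.

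The temperature difference was not the same in DBP1 cells. The DED1 difference minus the DBP1 difference passed for 596 of 4986 genes, or 12%, with 501 higher (10.0%) and 95 lower (1.91%) in DED1 cells. With median-of-ratios scaling these were 298 and 187, and the median of all genes went to 0.01 in place of 0.14. That test did not pair replicates, and a replicate block in the fit gave 638 higher and 179 lower. Higher and lower here describe the temperature difference, not the level at either temperature. Leaving out any 1 of the 10 libraries gave 192 to 579 higher and 13 to 123 lower, the lowest counts without DED1 replicate 1 at 37C. The total moved by over 1.5 times without any of them but DED1 replicate 1 at 30C and DBP1 replicate 1 at 37C. Energy and stress genes held many of them. All 16 TCA genes, 34 of 37 respiratory genes and 30 of 38 general stress genes were higher in DED1 cells relative to DBP1 cells. With median-of-ratios scaling there were 13, 23 and 26. The general stress list had a median of 1.09 in DED1 cells and -0.66 in DBP1 cells, the respiratory list -0.85 and -1.70, and the TCA list -0.27 and -1.29. Trehalose and glycogen genes were higher in 3 of 6 and 5 of 8. Ribosomal protein genes went the other way, with 25 of 79 of the large and 19 of 57 of the small subunit lower in DED1 cells, or 29 and 29 with median-of-ratios scaling. Their medians were -0.48 and -0.50 in DED1 cells and -0.18 and -0.19 in DBP1 cells. Of 11 genes of Hsp70s, Hsp110s and their partners, SSB1, SSB2, SSZ1 and SSE1 were lower in DED1 cells relative to DBP1 cells. None of the 18 Hsf1-dependent genes passed this test, with medians of 1.26 and 0.77.

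**Figure D5:**
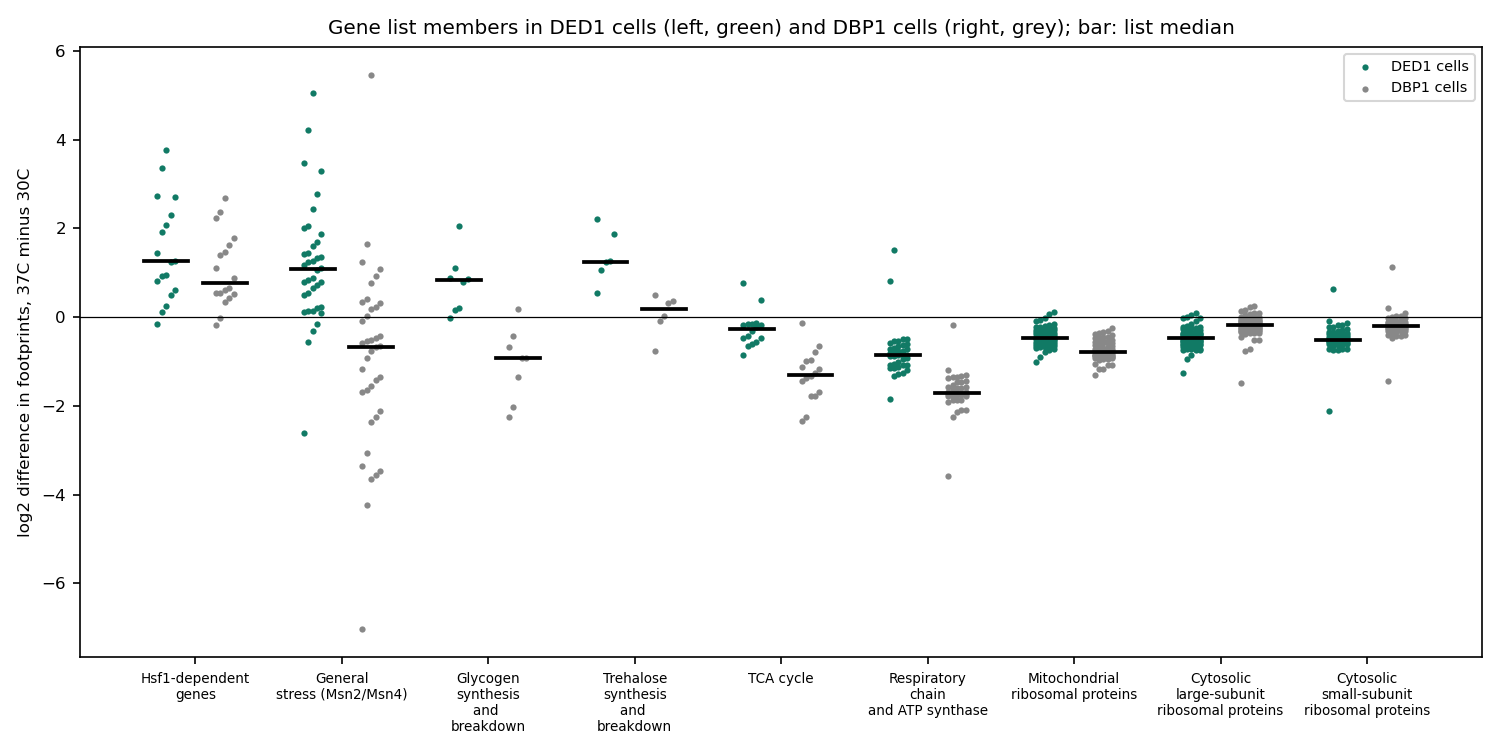
Log2 difference in footprints, 37C minus 30C (y axis), of the tested members of 9 gene lists (x axis) in DED1 cells (green, left) and DBP1 cells (grey, right), 1 point per gene with a bar at the list median. General stress genes have medians of 1.09 and -0.66, and respiratory chain genes -0.85 and -1.70.

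HSP12 differed the most among genes averaging at least 20 RPKM in the 5 libraries. It had 5.92 and 13.1 RPKM at 37C, against 35.1, 53.8 and 111 RPKM at 30C in DED1 cells and averaged 7.53 ± 1.17 RPKM at 37C (SD, n = 2) and 1119.8 ± 168 RPKM at 30C (SD, n = 3) in DBP1 cells. Its log2 difference was -2.61 ± 0.42 in DED1 cells and -7.03 in DBP1 cells, a difference of 4.42 ± 0.59 (adjusted p = 0.0029). YGP1 rose by 3.29 in DED1 cells and differed by 0.41 in DBP1 cells, where it averaged 729 ± 105 RPKM at 37C (SD, n = 2) and 550.2 ± 98.1 RPKM at 30C (SD, n = 3) (difference 2.88 ± 0.34, adjusted p = 0.0013). In both genes the 37C levels of the strains were close and the 30C levels far apart. GPH1 had log2 differences of 2.06 in DED1 cells and -1.35 in DBP1 cells (difference 3.40 ± 0.40, adjusted p = 0.0013). CIT1 fell by 0.61 in DED1 cells and differed by -1.77 in DBP1 cells (difference 1.17 ± 0.11, adjusted p = 4.2e-04). NDI1 fell by 0.93 and differed by -2.08 in DBP1 cells (difference 1.15 ± 0.11, adjusted p = 4.2e-04). YEF3 went the other way, at -0.59 in DED1 cells and -0.09 in DBP1 cells (difference -0.50 ± 0.09, adjusted p = 0.011). HSP26 and SSA4 rose in DED1 cells by 5.05 and 4.35 and differed by 5.47 and 4.84 in DBP1 cells, and these differences between strains did not pass (adjusted p = 0.53 and 0.39).

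Genes that mark other states of the cell stayed low. Of 19 markers of meiosis and sporulation, 2 were tested and rose, and 1 of these reached 5 RPKM at both temperatures. The 19 summed to 54.4 and 51.9 RPKM at 37C, against 22.2, 21.2 and 18.2 RPKM at 30C. IME1, the master activator of meiosis, had 14.5 and 16.5 RPKM at 37C, against 4.58, 3.84 and 3.64 RPKM at 30C (log2 difference 1.72 ± 0.22, adjusted p = 2.3e-04), and the methyltransferase gene IME4 rose by 0.87 ± 0.25. IME1 stayed under 5 RPKM in each 30C library. NDT80, which commits cells to meiosis, was at most 0.359 RPKM. Of 15 genes of mating type and pheromone response 1 was tested, STE4, which had 10.0 and 10.4 RPKM at 37C, against 5.45, 4.75 and 4.23 RPKM at 30C. STE4 averaged under 5 RPKM at 30C. The 15 summed to 31.9 and 27.4 RPKM at 37C, against 10.2, 12.1 and 8.92 RPKM at 30C. The part of such cells in other results was not tested.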

How the data were processed

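The authors deposited 1 table of RPKM values for 6679 genes in 20 libraries. Base calling and alignment tools were bcl2fastq 2.17, CASAVA and Bowtie2, per the submitters' processing notes. How shared reads and strand were counted, and on which build, is not given in the sources here. Gene names came from a RefSeq table and matched 5994 genes. Values were taken as log2(RPKM + 1) and fitted with limma 3.58.1 in R 4.3.3, with 1 mean per strain and temperature over all 10 footprint libraries, an intensity trend and Benjamini-Hochberg adjustment. Translation efficiency was fitted over 20 libraries as the footprint difference minus the mRNA difference. The footprint fit, but not the efficiency or between-strain fit, was tested on simulated data with independent noise. That simulation held no shift shared by a whole library. The log2 scale with a pseudocount understates changes of low genes, and RPKM carries no absolute scale.

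The genes named were up to 12 per direction with the largest difference among called genes of at least 20 RPKM over the 5 DED1 footprint libraries without overlap, up to 4 members per list with the smallest adjusted p and the member with the most footprints, all members of lists of up to 12, up to 6 per direction for efficiency and for the strain difference, and DED1 and DBP1. DBP2, TIF1, TIF2, APJ1, SIS1, DJP1, XDJ1, CUR1, MBF1, UBI4, CTT1, DDR48, TRX2, SOD1, SOD2, PDE1, PDE2, MSN2, HSF1, FLO11, GUT2, CIT3, LSC2, RPS14B, GCN2, EFT2, ANB1, CLB2 and SWE1 were named after their values were seen. One gene that the rule names is not reported here. The genes compared and the lists were chosen with earlier results of these data known.

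Across temperatures, deviations of same-numbered footprint libraries of DED1 cells correlated at 0.110 and -0.040, and the main fits did not pair temperatures. The deviations of 2 libraries at 37C mirror each other, so these values cannot show whether replicate numbers pair the temperatures. Footprint and mRNA libraries of the same number and group correlated at 0.240 to 0.655 in each pair, so the paired efficiency fit is given beside the unpaired one. Alternatives were another scaling, other pseudocounts and filters, no intensity trend, DED1 cells alone, a replicate block and leaving out each library. For efficiency, the footprint and mRNA libraries of a DED1 replicate were left out together.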

Additional observations from a re-analysis of the deposited data

Results flagged for a closer look

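The temperature difference of DED1 cells minus that of DBP1 cells passed limma's test of the difference for 596 genes. Each value below is that difference on the log2 scale, and each gene was singled out because its own test passed. Higher and lower describe this difference, not the level at either temperature. Higher in DED1 cells were HSP12 at 4.42, GPH1 at 3.40, RTC3 at 3.16, PGM2 at 3.05, CYC7 at 2.97, YRO2 at 2.94, YGP1 at 2.88, CIT1 at 1.17 and NDI1 at 1.15. Lower in DED1 cells were HPF1, a cell wall glycoprotein gene, at -2.21, PLB2, of a phospholipase, at -1.54, YBL039C-A at -1.28, FRE1, of a ferric reductase, at -1.11, MET5 at -0.98, SUN4 at -0.88 and YEF3 at -0.50. The FRE1 and YBL039C-A differences each lost their call in 8 of 10 settings that left out a library, with no filter and with no intensity trend, and MET5 in 6 of 10 that left out a library. HPF1 and SUN4 lost theirs without DED1 replicate 1 at 37C and without DBP1 replicate 2 at 37C.

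Levels in both strains are given for 3 of these genes. HSP12 had 5.92 and 13.1 RPKM at 37C, against 35.1, 53.8 and 111 RPKM at 30C in DED1 cells and averaged 7.53 ± 1.17 RPKM at 37C (SD, n = 2) and 1119.8 ± 168 RPKM at 30C (SD, n = 3) in DBP1 cells. HPF1 had 102 and 115 RPKM at 37C, against 83.7, 65.2 and 34.6 RPKM at 30C in DED1 cells and averaged 177 ± 23.9 RPKM at 37C (SD, n = 2) and 20.1 ± 5.54 RPKM at 30C (SD, n = 3) in DBP1 cells. Its rise in DED1 cells ended in 4 of 5 settings that left out a library and with median-of-ratios scaling (log2 difference 0.68, adjusted p = 0.12). PLB2 had 43.0 and 55.1 RPKM at 37C, against 67.4, 80.8 and 79.7 RPKM at 30C in DED1 cells and averaged 77.0 ± 16.5 RPKM at 37C (SD, n = 2) and 40.0 ± 3.44 RPKM at 30C (SD, n = 3) in DBP1 cells, and its fall in DED1 cells was not called without replicate 1 at 37C (log2 difference -0.45, adjusted p = 0.088).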

How the results depend on the processing

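Scaling moved the split between higher and lower calls. With median-of-ratios scaling, 1002 genes were higher and 1195 lower in footprints, 926 and 1180 in mRNA, and 298 and 187 in the difference between strains, and efficiency had 11 higher and 26 lower, 37 in all. HTB2 and TDH3 turned round, at -0.0048 and -0.023. Efficiency calls were 5 (3 higher and 2 lower) in DED1 cells alone, 10 (3 and 7) with a mean of at least 20 RPKM, 13 higher with no filter and 4 higher with a pseudocount of 5. Without an intensity trend the difference between strains had 29 lower genes.

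Leaving out 1 library at a time gave 1673 to 2489 footprint calls, with 1209 to 1872 higher and 464 to 617 lower, and 341 to 512 mRNA calls lower. Efficiency calls were 4 to 21, with 0 to 2 higher and 3 to 19 lower. Calls for the difference between strains were 205 to 702, with 192 to 579 higher and 13 to 123 lower. Same-numbered footprint libraries of DED1 and DBP1 cells had deviations correlated at 0.479 at 37C and at -0.161, 0.074 and 0.359 at 30C. The 37C value lies within the 0.240 to 0.655 of the paired assays, so replicate numbers may pair the strains there. The main fits paired neither strains nor temperatures. A block on the replicate numbers gave 2500 footprint calls (1851 higher and 649 lower), 2924 in mRNA (2355 and 569) and 817 between strains (638 and 179). For efficiency the block pairs the assays and gave 334 calls (141 higher and 193 lower). Over 148 named genes, 2012 of 2064 alternative values kept direction and side of the threshold, 39 were weaker, 11 were stronger and 2 were reversed. For efficiency 110 of 179 values were kept and 69 were weaker, and between strains 241 of 271 were kept and 30 were weaker. A filter on the mean of the DED1 libraries, added after the data were seen, gave 2613 footprint calls and 48 efficiency calls. The cause of these changes was not tested. With 2 libraries at 37C, a single library carries much of each mean, and genes near 5 RPKM rest on few reads.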

Other observations

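The libraries of the 37C pair differed from each other in nutrient genes beyond the purine genes. Of 3580 genes averaging at least 20 RPKM, 29 differed over 2-fold between replicates 1 and 2 at 37C, 24 of these higher in replicate 1 and 5 higher in replicate 2. All 29 differed in the same direction in mRNA, and over the 3580 genes the log ratios of the replicates correlated with r = 0.651 between assays, where genes are not independent. The zinc transporter gene ZRT1 had 689 RPKM in replicate 1 and 31.4 RPKM in replicate 2. SER3, of serine synthesis, had 1526 and 332 RPKM, ADE1 901 and 198 RPKM, and ADE13 992 and 242 RPKM, in replicates 1 and 2. FET3, a high-affinity iron uptake oxidase, was the higher in replicate 2, with 33.3 and 120 RPKM, and CHA1, which breaks down serine and threonine, had 5.77 and 29.1 RPKM. These are values of single libraries, with no test.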
